A study of Mus musculus with 14 samples.

Results

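The genes described are 5 matrix metalloproteinases (MMPs), Mmp2, Mmp3, Mmp9, Mmp14 and Mmp15, and the 4 tissue inhibitors of metalloproteinases (TIMPs), Timp1, Timp2, Timp3 and Timp4. They were taken by symbol, and all 9 were found among the 42687 genes of the count table. Levels were measured by RNAseq of isolated retinal pigment epithelium (RPE) in 14 libraries, each from both eyes of 1 male mouse at 3 months of age on the C57BL/6J background. The KO mice (Best1-Cre+/-; Clic4f/f) carry a floxed Clic4 and a Cre driven by the Best1 promoter, which is active in the RPE, so the deletion is directed to that cell type and other cells of the eye keep the gene. The libraries form 3 sets with KO mice of their own. The WT set has 3 KO and 3 wild type mice (WT), the Ctrl set has 2 KO and 2 Clic4f/f mice (Ctrl), which have the floxed allele without Cre, and the CreCtrl set has 2 KO and 2 Best1-Cre+/- mice (CreCtrl), which have Cre without the floxed allele. No library is in more than 1 set, and control genotype and set cannot be told apart. The question is whether the balance of these proteases and inhibitors differed between KO and control RPE.

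MMPs are zinc endopeptidases that cut collagens, laminins and other components of the extracellular matrix, and most are made as inactive precursors. Mmp2 and Mmp9 are secreted gelatinases and Mmp3 (stromelysin-1) is a secreted protease of broad range, while Mmp14 (MT1-MMP) and Mmp15 (MT2-MMP) are held in the plasma membrane. TIMPs bind the active site of MMPs, and TIMP2 in addition links MMP14 to the precursor of MMP2, which MMP14 then activates. The RPE rests on Bruch's membrane, a sheet of matrix shared with the choroid in which TIMP3 is deposited, and mutations of human TIMP3 cause Sorsby fundus dystrophy, a macular degeneration.

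Gene positions are those of GENCODE M21 on GRCm38, and all 9 genes are protein coding. Mmp2 (ENSMUSG00000031740) lies on the plus strand of chromosome 8 from 92827291 to 92853420, and Mmp15 (ENSMUSG00000031790) on the same strand of that chromosome from 95352268 to 95375080. Mmp3 (ENSMUSG00000043613) spans 7445822 to 7455975 of chromosome 9, Mmp9 (ENSMUSG00000017737) 164940780 to 164955850 of chromosome 2 and Mmp14 (ENSMUSG00000000957) 54431612 to 54445364 of chromosome 14, each on the plus strand. Timp1 (ENSMUSG00000001131) is on the plus strand of chromosome X from 20870166 to 20874735, inside the span of Syn1 on the other strand. Timp3 (ENSMUSG00000020044) is on the plus strand of chromosome 10 from 86300372 to 86349506 and Timp4 (ENSMUSG00000030317) on the minus strand of chromosome 6 from 115241892 to 115252205, inside Syn3 and Syn2, which are transcribed from the opposite strands. Timp2 (ENSMUSG00000017466) is on the minus strand of chromosome 11 from 118301069 to 118355740. Exons of Timp3 and Syn3 share 1733 bases, 21.3% of the Timp3 exons, and the strand setting of the counting is not given in the sources used here. Syn3 had 45 to 643 counts a library and Timp3 48162 to 308392.

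The bases just before the start of 3 of the MMPs and of Timp1 are shown. They were chosen because Mmp15 was higher, and Mmp3, Mmp14 and Timp1 lower, in KO than in WT and CreCtrl RPE. Sequences are from RefSeq (GRCm38.p6), and 7 of the 9 genes had one. Mmp2 and Mmp9 had none, so their promoters were not searched. Each is read 5′ to 3′ on the plus strand, is 120 bases long and ends 1 base before the start of the gene in RefSeq, or for Mmp15 28 bases further upstream, where the GENCODE gene begins. Capitals mark matches on either strand to an AP-1 element (TGANTCA), a GC box (GGGCGG) or a TATA box (TATAAA).
Mmp3, chr9:7445702-7445821: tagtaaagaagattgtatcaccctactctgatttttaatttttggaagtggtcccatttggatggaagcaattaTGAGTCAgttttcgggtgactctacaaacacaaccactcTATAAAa
Mmp14, chr14:54431478-54431597: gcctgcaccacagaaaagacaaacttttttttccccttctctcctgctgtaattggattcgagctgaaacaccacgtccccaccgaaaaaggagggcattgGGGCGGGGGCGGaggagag
Mmp15, chr8:95352148-95352267: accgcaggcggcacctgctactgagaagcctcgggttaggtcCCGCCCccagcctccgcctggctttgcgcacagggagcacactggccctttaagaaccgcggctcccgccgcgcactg
Timp1, chrX:20870046-20870165: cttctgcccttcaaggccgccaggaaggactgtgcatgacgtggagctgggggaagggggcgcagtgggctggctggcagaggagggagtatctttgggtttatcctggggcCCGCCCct

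Over the whole window of 250 bases before to 50 after the start, Mmp3 was the one gene of the 7 with the AP-1 letters, whose first base is 46 before its start. It was also the one with the TATA letters, 7 before the start as annotated. The AP-1 letters are in 7.81% and the TATA letters in 13.6% of all 32851 windows of this length. GC boxes were found in Mmp14 (2 side by side), Mmp15, Timp1, Timp2 and Timp3, and in 35.7% of all windows. The window of Timp4 held none of the 3 motifs. Such matches describe the letters and do not show that a factor binds there.

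Libraries held 9828293 to 32384166 counts, and the 3 WT libraries were the shallowest, with up to 12363580. Levels are given as CPM (counts relative to the total of the library) scaled by TMM over the 14 libraries, where 3 counts are worth 0.104 to 0.258 CPM. Fold changes come from edgeR's quasi-likelihood test within each set, with TMM of that set, so they differ slightly from the ratio of the CPM, and a gene is said to pass at an adjusted p (Benjamini-Hochberg over all genes tested) under 0.05. Clic4, the targeted gene, had 9.79 to 33.9 CPM in the KO libraries. It had 218.3 to 229.9 CPM in WT and 62.1 to 107.7 CPM in the other controls, with every KO library below every control. The fold change of Clic4 passed in KO vs. WT and KO vs. CreCtrl but not in KO vs. Ctrl. There it was -1.61 on the log2 scale (SE 0.58, adjusted p = 0.333 from edgeR's test). RPE marker genes (Rpe65, Rlbp1 and 8 others) summed to 16800.0 to 24160.0 CPM in the WT libraries, to 48631 to 59753 CPM in the other controls and to 74448 to 85298 CPM in the KO libraries. Markers of fibroblasts (Dcn, Col1a1 and 8 others) went the other way, with 7594 to 7686 CPM in WT, 1345 to 2708 CPM in the other controls and 259 to 811 CPM in KO libraries, and none of these markers was at 0 in a group. The sums of endothelial and of pericyte and smooth muscle markers were also lower in KO libraries. They were 35.2 to 163 CPM against 132 to 769 CPM and 310.1 to 492 CPM against 542 to 2488 CPM in controls. Of the 7 pericyte and smooth muscle markers, 4 passed as lower in KO vs. WT and 4 in KO vs. CreCtrl. Acta2 and Cspg4 passed in neither, with log2 fold changes of 0.64 and 0.13 against WT and 0.79 and 0.14 against CreCtrl.

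The proteases Mmp2, Mmp3 and Mmp14 and the inhibitor Timp1 were lower in KO than in WT and in CreCtrl libraries, while the membrane protease Mmp15 was higher. In KO vs. WT, 8 of the 9 genes had enough reads to be tested and 7 passed, 5 lower (Mmp2, Mmp3, Mmp14, Timp1, Timp2) and 2 higher (Mmp15, Timp3). Of all 15428 genes tested there, 19.0% passed as lower and 16.1% as higher in KO. In KO vs. CreCtrl, 6 of 8 passed, Mmp2, Mmp3, Mmp9, Mmp14 and Timp1 as lower and Mmp15 as higher, where 12.2% of 15963 genes passed as lower and 3.60% as higher. When the 14 libraries shared 1 estimate of the spread, only Mmp2 passed in KO vs. CreCtrl, and the other 5 did not. In KO vs. Ctrl, none of the 8 genes passed edgeR's test, as none of all 15287 genes did (0%), although 1846 genes had an unadjusted p under 0.05. DESeq2 called Mmp2 in that set, and edgeR without a filter on low counts called Mmp2 and Mmp14. The median log2 fold change over the 8 genes was -2.35 against WT, -0.49 against Ctrl and -2.20 against CreCtrl, beside -0.08, 0.01 and -0.02 for all genes tested. An exact permutation test of 3 mice against 3 cannot go below p = 0.1, and one of 2 against 2 cannot go below 0.333.

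**Figure D1:**
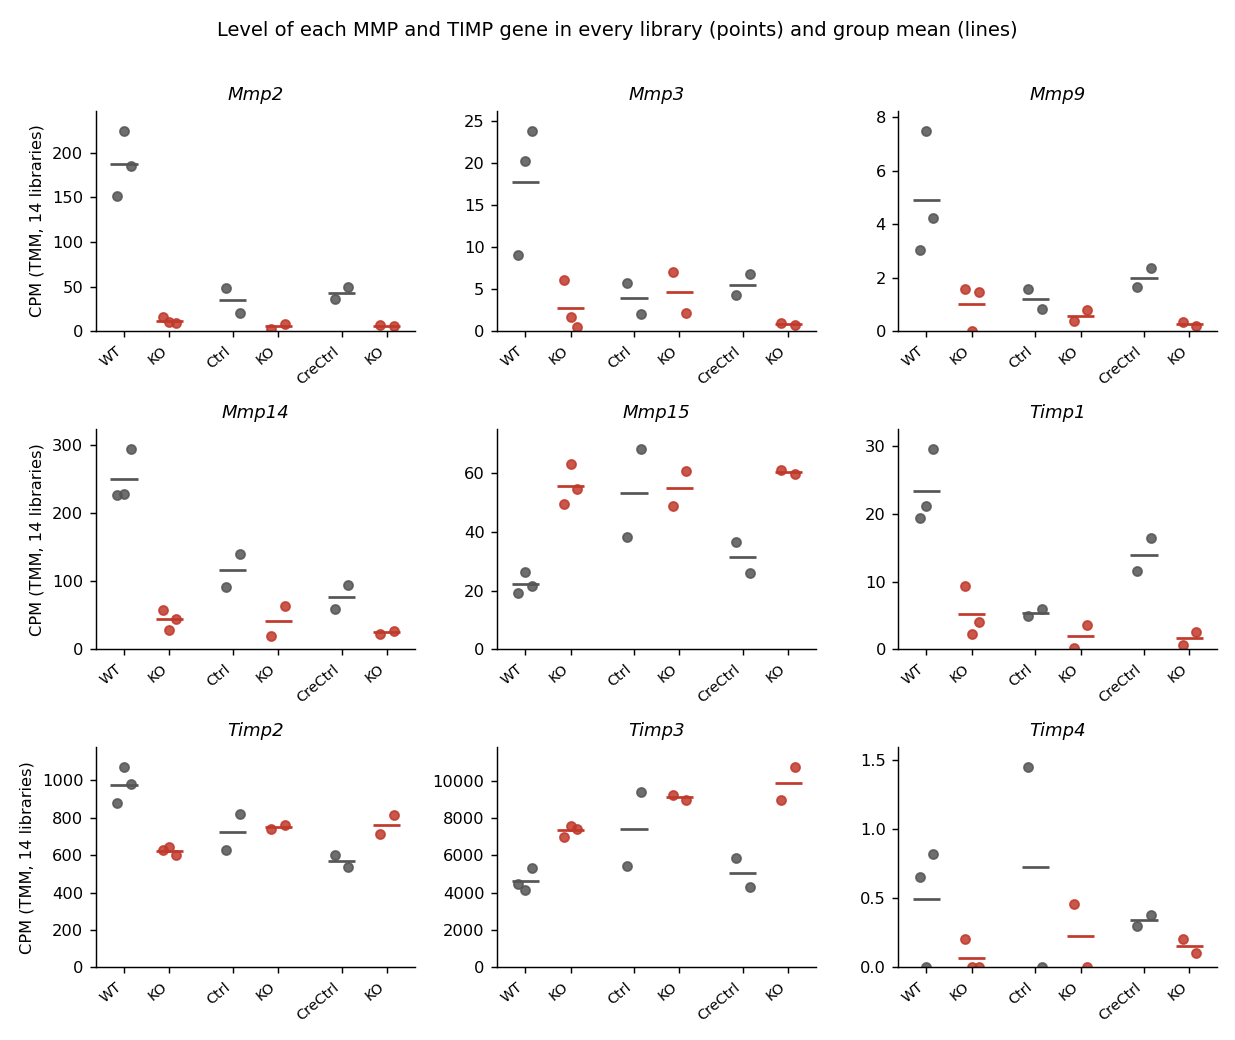
Level of each of the 9 genes in the 14 libraries, in CPM on a linear axis from 0 that differs between panels, by set and genotype, with the mean of each group as a line. The WT libraries carry the highest levels of Mmp2 (151 to 224 CPM) and Mmp14 (227 to 295 CPM), and the KO libraries of all 3 sets lie close together for Mmp15 (48.9 to 63.1 CPM).

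Mmp2, a gelatinase that cuts type IV collagen, showed the largest difference between KO and WT among the 8 genes tested. Its level was 151, 224 and 185 CPM in the WT libraries and 15.4, 10.8 and 8.96 CPM in the KO libraries of that set. The groups were far apart, and the log2 fold change was -4.13 (SE 0.24, edgeR's adjusted p = 2.36e-05). In the Ctrl set it was 48.7 and 20.7 CPM in Ctrl and 2.74 and 8.36 CPM in KO libraries. The KO libraries lay below both Ctrl libraries, but the fold change of -2.64 (SE 0.68) did not pass (adjusted p = 0.173 from edgeR's test, and 0.00295 from DESeq2). In the CreCtrl set it fell from 35.8 and 50.1 CPM to 6.53 and 5.84 CPM, by 2.83 on the log2 scale (SE 0.23, adjusted p = 0.00250 from edgeR's test). The 3 control genotypes differed as well, with every WT library above every Ctrl and CreCtrl library. In bulk RNA, fewer cells of a type and less RNA per cell cannot be told apart.

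Mmp14, which activates the precursor of MMP2 at the cell surface, was at 227, 229 and 295 CPM in WT and at 57.7, 28.9 and 45.002 CPM in the KO libraries of that set. This was a log2 fold change of -2.65 (SE 0.26, adjusted p = 1.34e-04 from edgeR's test). The Ctrl libraries had 92.1 and 140.0 CPM and the KO libraries 19.6 and 63.2 CPM, with no overlap and a fold change of -1.49 (SE 0.57) that did not pass (adjusted p = 0.382 from edgeR's test). Without KO replicate 1 of the Ctrl set, the fold change there was -0.88, and without KO replicate 2 it was -2.56. In the CreCtrl set it fell from 58.9 and 94.5 CPM to 22.6 and 27.6 CPM, by 1.64 on the log2 scale (SE 0.25, adjusted p = 0.00991 from edgeR's test).

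Mmp3, a stromelysin that also cuts the precursors of other MMPs, was scarce and more variable. WT libraries had 9.03, 20.3 and 23.9 CPM and KO libraries of that set 6.13, 1.75 and 0.468 CPM, so that KO replicate 1 came close to WT replicate 1. The log2 fold change was -2.82 (SE 0.81, adjusted p = 0.0260 from edgeR's test), and it did not pass without WT replicate 2 (adjusted p = 0.0745), WT replicate 3 (0.0903) or KO replicate 2 (0.0940). The Ctrl set showed no separation, with 5.80 and 2.08 CPM in Ctrl and 7.05 and 2.21 CPM in KO libraries (log2 fold change 0.23, SE 0.80). In the CreCtrl set it fell from 4.28 and 6.80 CPM to 0.951 and 0.730 CPM (log2 fold change -2.75, SE 0.45, adjusted p = 0.0118 from edgeR's test).

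Mmp9, the other gelatinase and a product of neutrophils and macrophages among other cells, had 0 to 87 counts a library. It was 3.04 to 7.49 CPM in WT and 0 to 1.57 CPM in the KO libraries of that set, where the library with 0 counts could still hold up to 0.210 CPM. KO and WT libraries did not overlap, yet the fold change of -2.40 had an SE of 1.19 and did not pass (adjusted p = 0.159 from edgeR's test). Values were 1.58 and 0.818 CPM in Ctrl against 0.391 and 0.776 CPM in KO libraries. In the CreCtrl set it fell from 1.67 and 2.35 CPM to 0.331 and 0.209 CPM (log2 fold change -2.92, SE 0.62, adjusted p = 0.0266 from edgeR's test), a call that was lost without CreCtrl replicate 2 (adjusted p = 0.120) or KO replicate 2 (0.133).

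Mmp15, a membrane MMP of epithelia, was the one protease higher in KO. It rose from 19.2, 26.4 and 21.5 CPM in WT to 49.5, 63.1 and 54.8 CPM in KO libraries, a log2 fold change of 1.17 (SE 0.18, adjusted p = 0.00137 from edgeR's test). It rose from 36.7 and 26.2 CPM in CreCtrl to 61.2 and 59.6 CPM in KO libraries, a log2 fold change of 0.91 (SE 0.19, adjusted p = 0.0247), which did not pass without KO replicate 2 (adjusted p = 0.0530). In the Ctrl set the groups overlapped, with 38.5 and 68.3 CPM in Ctrl and 48.9 and 60.9 CPM in KO libraries, and the fold change was 0.04 (SE 0.33). Ctrl replicate 2 held the highest level of the 14 libraries. The 7 KO libraries lay between 48.9 and 63.1 CPM, while the controls ranged from 19.2 to 68.3 CPM.

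**Figure D2:**
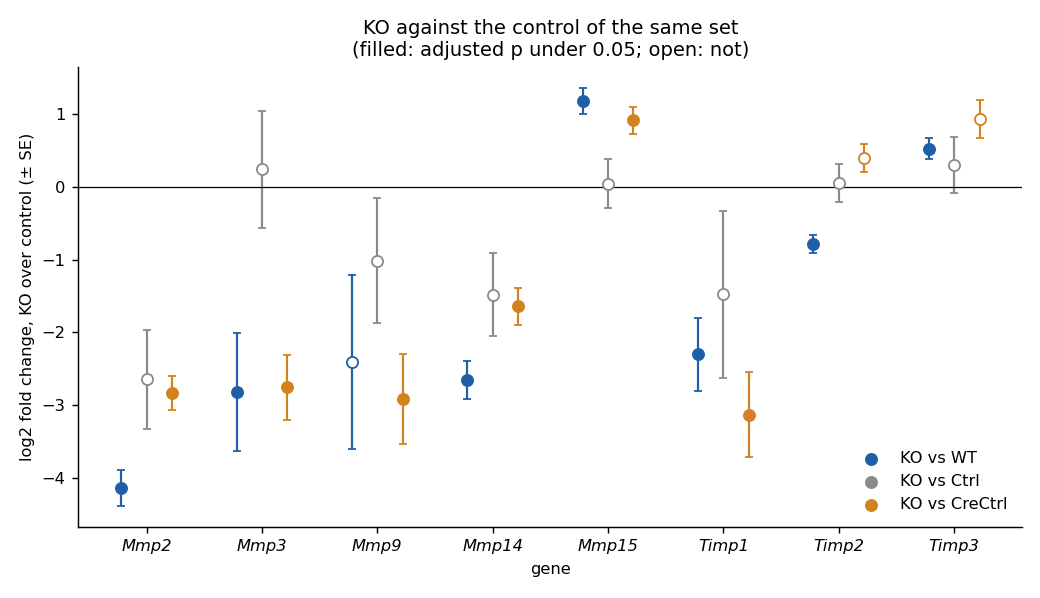
Log2 fold change of KO over the control of the same set for the 8 genes tested, with standard errors (edgeR), where filled points passed an adjusted p of 0.05 and open points did not. Mmp2, Mmp9, Mmp14 and Timp1 lie below 0 in all 3 sets, Mmp15 and Timp3 lie above 0 (Mmp15 in the Ctrl set at 0.04, and at -0.054 when scaled by library size alone), and Timp2 is at -0.79 in the WT set and at 0.39 in the CreCtrl set.

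Timp3, the inhibitor bound to the matrix, was by far the most abundant of the 9 genes and was higher in KO than in WT. It alone took 0.478% to 0.952% of all counts of a library, and per kilobase of exon it ranked between 16 and 38 among 21759 protein coding genes. It was 4454, 4148 and 5312 CPM in WT and 6997, 7581 and 7425 CPM in the KO libraries of that set, without overlap. The log2 fold change was 0.52 (SE 0.14, adjusted p = 0.0222 from edgeR's test), which did not pass without WT replicate 2 (adjusted p = 0.0886) or when libraries were scaled by their totals alone (0.28, adjusted p = 0.144). In the CreCtrl set it was 5866 and 4286 CPM in CreCtrl and 8978 and 10723 CPM in KO libraries, also without overlap, and the fold change of 0.93 (SE 0.26) narrowly failed edgeR's test (adjusted p = 0.0529). In the Ctrl set, 5410.0 and 9366 CPM in Ctrl stood against 9228 and 8969 CPM in KO libraries (log2 fold change 0.30, SE 0.38). Ctrl replicate 2 was again as high as the KO libraries, and without Ctrl replicate 1 the fold change was -0.03.

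Timp2, which both inhibits MMP2 and takes part in its activation, was the second most abundant in every library per kilobase of exon, between ranks 80 and 258. It had 878, 1070 and 981 CPM in WT and 627, 642 and 601 CPM in the KO libraries of that set, and it fell by 0.79 on the log2 scale (SE 0.12, adjusted p = 0.00147 from edgeR's test). The difference went the other way in the CreCtrl set, with 601 and 536 CPM in CreCtrl and 710.4 and 817 CPM in KO libraries (log2 fold change 0.39, SE 0.19, edgeR's adjusted p = 0.171). In the Ctrl set, 629 and 822 CPM in Ctrl enclosed the KO values of 738 and 762 CPM. The WT libraries were the 3 highest of the 14, and the 7 KO libraries lay between 601 and 817 CPM.

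Timp1, an inducible inhibitor secreted by stromal and inflammatory cells, had 3 to 431 counts a library. It fell from 19.4, 21.2 and 29.6 CPM in WT to 9.39, 2.31 and 4.01 CPM in KO libraries (log2 fold change -2.30, SE 0.50, adjusted p = 0.00757 from edgeR's test). It fell from 11.6 and 16.4 CPM in CreCtrl to 0.661 and 2.54 CPM in KO libraries (log2 fold change -3.13, SE 0.58, adjusted p = 0.0179). Values were 4.87 and 5.88 CPM in Ctrl and 0.196 and 3.64 CPM in the KO libraries of that set, where the lower of them rests on 3 counts (log2 fold change -1.48, SE 1.15, adjusted p = 0.783). Of the 3 TIMPs with enough reads for a test within a set, Timp1 was the one whose difference had the direction of Mmp2 and Mmp14 in all 3 sets, although it passed in only 2 of them.

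Timp4, an inhibitor best known from heart and brain, was near the limit of detection. It had 0 to 22 counts a library, with 55 counts in the 7 control and 18 in the 7 KO libraries together, and 2 of the control and 3 of the KO libraries had none. Too few reads remained for a test within a set. In the fit of all 14 libraries its log2 fold change was -1.89 (SE 1.19, adjusted p = 0.236 from edgeR's test), so a difference in Timp4 was not detectable at this depth.

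A fit over the 3 sets, with the set as a term, called 7 of the 9 genes, 5 lower (Mmp2, Mmp3, Mmp9, Mmp14, Timp1) and 2 higher (Mmp15, Timp3) in KO. Of 17662 genes tested in it, 17.6% passed as lower and 18.5% as higher. It uses the same libraries as the comparisons by set and adds no independent evidence. The log2 fold changes were -3.27 (SE 0.32) for Mmp2, -1.96 (SE 0.27) for Mmp14, 0.85 (SE 0.20) for Mmp15 and 0.64 (SE 0.22) for Timp3. Timp2, with -0.14 (SE 0.17, adjusted p = 0.549 from edgeR's test), did not pass. The calls of Mmp3, Mmp9 and Timp3 were lost, leaving 4, without WT replicate 2 or without either KO library of the CreCtrl set.

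Whether the KO effect differed between sets was tested directly. Timp2 was the one gene of the 9 to pass, between the WT and the CreCtrl set, with a difference in log2 fold change of -1.07 (SE 0.23, adjusted p = 0.0407 from edgeR's test), where 1.49% of 17662 genes passed. That call was lost when 1 of any but the first WT library was left out, with adjusted p of 0.0532 to 0.246. None passed between the WT and the Ctrl set, where 5.15% of genes did. Mmp15 came closest there, with a difference of 1.28 (SE 0.35, adjusted p = 0.0517), and without Ctrl replicate 1 its adjusted p was 0.00857. None passed between the Ctrl and the CreCtrl set, where 0% of genes did by edgeR and 1545 had an unadjusted p under 0.05. The fold changes of Mmp2 and Mmp14 were thus larger in the WT than in the other sets without passing a test of that difference, with adjusted p of 0.211 and 0.330 against the Ctrl set and 0.369 and 0.515 against the CreCtrl set.

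Libraries were also counted rather than tested. For 6 of the 9 genes in KO vs. WT, every KO library lay below every control library of its set. The same held for 4 in KO vs. Ctrl (Mmp2, Mmp9, Mmp14, Timp1) and for 6 in KO vs. CreCtrl. The 6 in KO vs. CreCtrl included Timp4, not tested there, at 7 and 6 counts in CreCtrl against 5 and 3 in KO libraries. Mmp9 in the Ctrl set was separated by little, with 0.818 CPM in the lower Ctrl and 0.776 CPM in the higher KO library. Every KO library lay above every control for 2, 0 and 3 genes. Of all genes tested, 24.5% lay wholly below and 28.6% wholly above in the WT set, 22.7% and 18.3% in the Ctrl set, and 34.9% and 37.2% in the CreCtrl set. With 2 against 2 libraries, such separation was thus common.

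To compare the genes with each other, CPM were divided by the length of the merged exons in kilobases. On this scale the TIMP transcripts outweighed the MMP transcripts in every library, and more so in KO. The 5 MMPs summed to 92.4 to 123 CPM per kb in WT, to 30.1 to 43.7 in the Ctrl and CreCtrl and to 17.2 to 27.3 in the KO libraries. The 4 TIMPs summed to 682 to 1368 CPM per kb in controls and to 1031 to 1529 in KO libraries. TIMP transcripts were 8.60, 6.56 and 7.64 times as abundant as MMP transcripts in WT and 37.8, 53.0 and 50.9 times in the KO libraries of that set. They were 20.4 and 31.3 times as abundant in Ctrl and 77.0 and 50.4 times in the KO libraries of that set, and 29.4 and 17.1 times in CreCtrl against 72.7 and 85.6 times in KO libraries. All 7 KO libraries, at 37.8 or more, lay above all 7 controls, at 31.3 or less. Sums of cell type markers separated the same libraries. Fibroblast markers summed to 259 to 811 CPM in KO and to 1345 to 7686.5 CPM in control libraries. RPE markers summed to 74448 to 85298 CPM in KO and to 16800 to 59753 CPM in control libraries. The part of other cell types in the ratio was not tested.

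**Figure D3:**
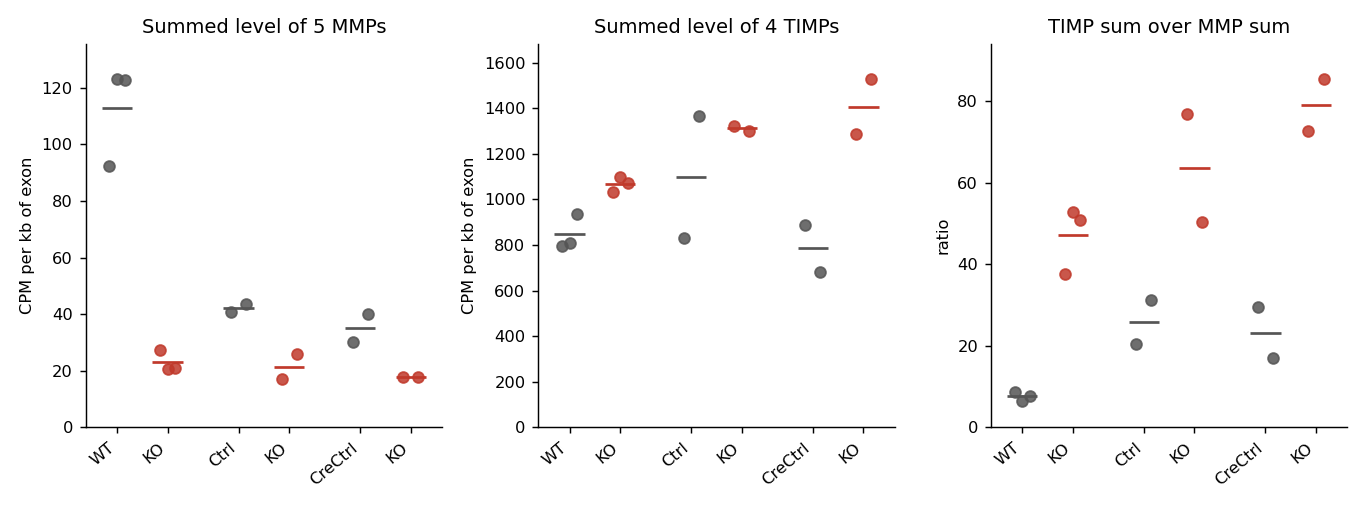
Summed level of the 5 MMPs, summed level of the 4 TIMPs (both in CPM per kb of exon) and the ratio of the second to the first in each library, by set and genotype, with group means as lines and axes from 0. The ratio is 6.56 to 31.3 in the controls and 37.8 to 85.6 in the KO libraries, and the MMP sum sets the WT libraries apart from all others.

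The log2 ratio of MMP to TIMP transcripts was -2.92 ± 0.20 (SD, n = 3) in WT and -5.55 ± 0.27 (SD, n = 3) in KO libraries, a difference of -2.63, or 6.18-fold. It was 2.46-fold lower in KO than in Ctrl libraries (-4.66 ± 0.44 and -5.96 ± 0.43, SD, n = 2 each) and 3.52-fold lower than in CreCtrl libraries (-4.49 ± 0.56 and -6.30 ± 0.17, SD, n = 2 each). Each difference was larger than the spread within its groups. The sums leave out the other MMPs of the genome. They also weigh transcripts, not protein or activity. Timp3 made up 63.0% to 84.1% of the TIMP sum in controls and 83.4% to 86.1% in KO libraries. Without it the KO minus control difference of the log2 ratio was -1.56 for WT, -1.03 for Ctrl and -1.25 for CreCtrl.

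The make-up of the MMP sum also differed. Mmp2 made up 44.7% to 54.0% of it in WT, 14.04% to 37.1% in the other controls and 4.73% to 16.8% in KO libraries. Mmp15 made up 3.25% to 3.98% in WT, 12.1% to 29.0% in the other controls and 33.6% to 64.1% in KO libraries. Per kilobase of merged exon, Mmp2 was the most abundant of the 5 MMPs in 4 control libraries and Mmp14 in the other 3. Mmp15 was first in 6 of the 7 KO libraries and Mmp14 in the remaining 1. In several libraries the first place was held by little, as in CreCtrl replicate 1 with 10.6 CPM per kb for Mmp2 and 9.89 for Mmp14. In KO replicate 1 of the WT set, Mmp14 had 9.68 CPM per kb and Mmp15 had 9.18. The order also depended on the length used. Per kilobase of the longest transcript, Mmp14 led in every control but WT replicate 2, at 70.6 against 72.8 for Mmp2. On that scale Mmp14 also led in KO replicates 1 and 3 of the WT set and in KO replicate 2 of the Ctrl set. Mmp15 led there in the remaining KO libraries.

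**Figure D4:**
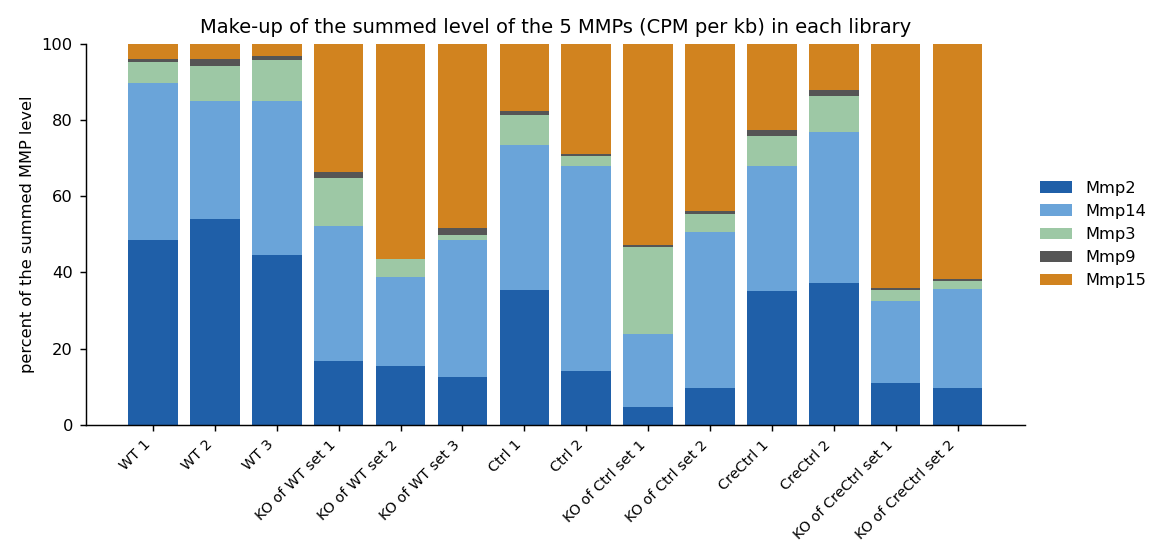
Share of each MMP in the summed MMP level (CPM per kb of exon) of each of the 14 libraries, in percent, as stacked bars. Mmp2 and Mmp14 together fill most of the bars of the WT libraries, and Mmp15 fills 33.6% to 64.1% of the bars of the KO libraries.

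The pair on which MMP2 activation depends can be read in the same way. Per kilobase, Timp2 transcripts were 4.13 to 5.02 times those of Mmp2 in WT, 9.27 to 34.4 times in the other controls and 35.1 to 233 times in KO libraries. Timp2 was 5.09 to 15.6 times Mmp14 in controls and 16.6 to 57.5 times in KO libraries. The ratio of Timp3 to Timp2 was 1.85 to 2.59 in WT, 3.82 to 5.45 in the other controls and narrow in KO libraries, at 5.34 to 6.28.

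The genes moved beside markers of other cell types, whose part in the differences was not tested. In KO vs. WT, 10 of 10 fibroblast markers were called lower (median log2 fold change -4.16) and 9 of 10 RPE markers higher (median 1.59). Myeloid markers were called lower there in 9 and higher in 1 of 10 cases. Rod photoreceptor markers were called lower in 0 and higher in 1 of 10 cases (median 0.59). In KO vs. CreCtrl, 8 of 10 fibroblast markers were called lower (median -3.37), as were 8 of 10 endothelial, 8 of 10 myeloid and 9 of 10 rod photoreceptor markers, and 1 of 10 RPE markers was called higher. In KO vs. Ctrl none of these markers was called, with medians of -2.94 for fibroblast and 0.58 for RPE markers. Myeloid and rod photoreceptor markers had medians of 0.30 and 0.68 there. Per 1000 CPM of the 10 fibroblast markers, Mmp2 was at 19.9 to 29.5 CPM in WT and 19.0 to 29.6 CPM in the KO libraries of that set, at 15.4 to 19.7 CPM in Ctrl and 10.6 to 20.1 CPM in KO, and at 18.5 to 25.3 CPM in CreCtrl and 12.4 to 16.6 CPM in KO. KO and control thus overlapped on this scale in the WT and Ctrl sets and not in the CreCtrl set, where KO was lower. Mmp14 was higher in KO on the same scale in the WT set, with 29.9 to 38.3 CPM in WT and 71.2 to 133 CPM in KO, and in the CreCtrl set, with 34.9 to 41.6 and 57.7 to 58.6 CPM. It overlapped in the Ctrl set, with 37.2 and 104 CPM in Ctrl and 75.8 and 152 CPM in KO. Set against 1000 CPM of the RPE markers, Mmp15 was lower in KO than in WT (0.648 to 0.739 against 0.891 to 1.36 CPM) and higher in KO than in CreCtrl (0.740 to 0.821 against 0.506 to 0.614 CPM). Timp3 showed the same pair of directions on that scale, with 88.9 to 97.1 CPM in KO against 214 to 265 CPM in WT, and 121 to 133 CPM in KO against 82.9 to 98.2 CPM in CreCtrl. Between Ctrl and KO, Mmp15 was at 0.791 and 1.40 CPM in Ctrl and at 0.656 and 0.794 CPM in KO, and Timp3 at 111 and 192 CPM in Ctrl and at 124 and 117 CPM in KO, so both overlapped. On the RPE scale, Timp2 was lower in KO than in WT (7.52 to 8.205 against 40.6 to 55.2 CPM) and in Ctrl (9.915 to 9.931 against 12.9 to 16.9 CPM). It overlapped in the CreCtrl set (9.54 to 10.14 against 10.05 to 10.38 CPM). Timp1 on the fibroblast scale was higher in KO than in WT (6.31 to 11.9 against 2.55 to 3.84 CPM). It was lower in KO than in CreCtrl (1.69 to 5.40 against 6.05 to 8.16 CPM) and overlapped in the Ctrl set.

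**Figure D5:**
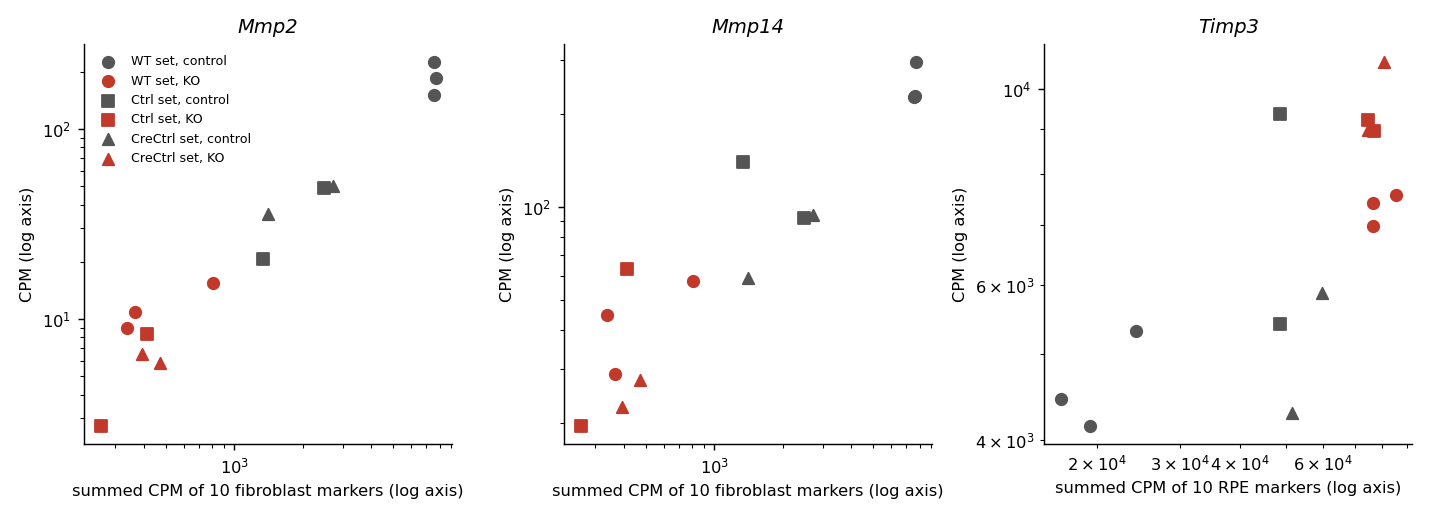
CPM of Mmp2 and Mmp14 against the summed CPM of 10 fibroblast markers, and CPM of Timp3 against the summed CPM of 10 RPE markers, in the 14 libraries on log axes, with symbols for the set and colours for control and KO. Mmp2 and the fibroblast markers are both highest in the 3 WT libraries and both lowest in KO replicate 1 of the Ctrl set, at 2.74 CPM.

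Genes whose pattern over the 14 libraries was most like that of a member were sought among 17662 genes by Pearson's r of log2 CPM. The libraries share their genotypes and sets, so r over all of them also holds the difference between KO and control. For Mmp2 these were Serping1, which encodes the C1 inhibitor of complement, Col1a2, a chain of type I collagen and one of the fibroblast markers, and Crip2 (r = 0.989, 0.987 and 0.987 over 14 libraries). Within the 7 controls r was 0.983 to 0.990 and within the 7 KO libraries 0.883 to 0.900 for these genes. For Mmp14 they were Pid1, Antxr1 and Rab7b (r = 0.981, 0.976 and 0.972). For Timp3 they were Mapkap1, a subunit of mTORC2, Dnajc1 and AU040320 (r = 0.963, 0.959 and 0.956), and for Timp2 they were Msrb3, Lamp1, a lysosomal membrane protein, and Epn2 (r = 0.917, 0.910 and 0.895), with only 0.586 to 0.780 within the KO libraries.

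Other MMPs were lower rather than higher where they passed. Of 18 further MMP genes, 10 could be tested in KO vs. WT, of which 5 fell and 0 rose (median log2 fold change -1.998). In KO vs. CreCtrl 3 of 10 fell and 0 rose (median -1.25). For this list and those below, the shares over all genes tested serve as the background. In KO vs. WT 19.0% passed as lower and 16.1% as higher, and in KO vs. CreCtrl 12.2% and 3.60%. Mmp12, the macrophage elastase, fell in KO vs. WT (34.2 ± 15.8 to 2.67 ± 3.82 CPM, SD, n = 3 each), but its KO libraries of the Ctrl set had 60.6 ± 81.7 CPM (SD, n = 2). Mmp28 did not pass in any set, with means of 17.4 to 19.8 CPM in every group. Mmp1a, Mmp1b, Mmp7 and Mmp20 had no count in any library. Mmp11 fell in KO vs. WT (21.8 ± 3.83 to 12.1 ± 1.91 CPM, SD, n = 3 each).

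Genes that activate or induce MMPs were mixed in direction. Of 8 tested in KO vs. WT, 5 fell and 1 rose, and in KO vs. CreCtrl 4 of 8 fell and 0 rose. The gene that rose was Bsg, which encodes basigin (EMMPRIN), an inducer of MMPs that is abundant in the RPE. It went from 1114 ± 189.5 CPM in WT to 5585 ± 466.1 CPM in KO libraries (SD, n = 3 each), with 3293 and 5170.0 CPM as means of CreCtrl and KO (n = 2 each, adjusted p = 0.102 from edgeR's test). Furin, a convertase of the precursor of MMP14, did not pass in any set. Plat, the tissue plasminogen activator, fell by 2.46 on the log2 scale in KO vs. WT (SE 0.32) and by 1.85 in KO vs. CreCtrl (SE 0.19).

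Inhibitors outside the TIMP family went in both directions. The list also holds the clearance receptor Lrp1. In KO vs. WT, 2 of the 5 genes tested rose and 2 fell, and in KO vs. CreCtrl 0 of 5 passed. The 2 that fell are not among the 3 genes with the highest mean CPM, which are named here. A2m (alpha-2-macroglobulin, a broad protease trap) rose from 126 ± 10.7 to 473 ± 63.6 CPM and Spock1 (testican-1) from 84.9 ± 7.57 to 258 ± 14.4 CPM in KO vs. WT (SD, n = 3 each). In the Ctrl set the KO means of both were within 1 SD of the Ctrl means. Lrp1, a receptor that clears MMP and TIMP complexes, did not pass in any set, with means of 1804 to 2154 CPM.

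Among the related metalloproteinases, 9 of 14 ADAMTS genes fell and 0 rose in KO vs. WT, and 7 of 13 fell and 0 rose in KO vs. CreCtrl (medians -2.68 and -2.22). Adamts1, an aggrecanase, fell by 2.38 in KO vs. WT (SE 0.27) and by 2.82 in KO vs. CreCtrl (SE 0.38) on the log2 scale, and Adamts10 by 2.37 (SE 0.18) and 1.72 (SE 0.24). Of the ADAMs, 4 of 8 fell and 1 rose in KO vs. WT, and 4 of 7 fell and 1 rose in KO vs. CreCtrl. The one that rose was Adam9 in both (log2 fold change 0.70, SE 0.12, and 0.73, SE 0.19), while Adam15 fell and Adam10, the main sheddase of many membrane proteins, did not pass. The subunits of AP-1, a factor known to drive several MMP promoters, were called lower in 6 of 8 cases in KO vs. WT and in 7 of 7 in KO vs. CreCtrl (medians -2.82 and -3.03). Fos fell from 2255 ± 202 to 195 ± 122 CPM in KO vs. WT (SD, n = 3 each) and from 804 ± 32.1 to 79.0 ± 49.0 CPM in KO vs. CreCtrl (SD, n = 2 each). None of the genes of these lists passed in KO vs. Ctrl by edgeR's test.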

How the data were processed

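RPE cells of 14 mice were measured by stranded poly(A) RNAseq with paired-end reads. The authors used STAR to map reads to GRCm38, and deposited raw counts per Ensembl gene with no normalization. The submitters' processing notes list bcl2fastq 2.19, STAR 2.5.2, Cufflinks 2.1.1 and HTSeq 0.11.2. The strand setting and annotation release of the counting are not given in the sources used here. Gene names came from GENCODE M21, which held 42329 of the 42687 genes. Groups came from the labels, and the set of each KO library from the style of its sample title. No 2 libraries held identical counts.

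KO and control libraries of each set were compared by edgeR's quasi-likelihood test (edgeR 4.0.16, R 4.3.3) with TMM and filterByExpr. Differences between sets were contrasts in 1 fit of 6 groups. Each test was first tested on simulated data. Alternatives were RLE scaling, library size alone, keeping genes with at least 1 count, DESeq2 1.42.0, a replicate block, a shared fit of 14 libraries and leaving out each library. Log2 CPM for r used a prior count of 2. The members and lists were chosen with earlier results of these data known. All 9 members are named, and of each pathway list at most the 3 genes with the highest mean CPM. Results of 1 list are not reported here. The 4 MMPs named as at 0 in all libraries were chosen after their values were seen. The study's methods describe Ctrl mice as littermates of KO mice without tying libraries to litters, and p-values measure the spread between these mice. Counts were 9828293 to 32384166 a library, and intervals or limits at 3 counts cover counting error only.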

Additional observations from a re-analysis of the deposited data

Results flagged for a closer look

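The KO effect on Timp2 was not alike in the WT and CreCtrl sets. Its log2 fold change was -0.79 in KO vs. WT and 0.39 in KO vs. CreCtrl, and the difference was -1.07 (SE 0.23), which passed edgeR's quasi-likelihood test (adjusted p = 0.0407). The 3 KO libraries were each below the lowest WT library, and both KO libraries lay above both CreCtrl libraries. The KO levels of the 2 sets were 601 to 642 and 710.4 to 817 CPM, while the control levels were 878 to 1070 and 536 to 601 CPM. Control genotype and set cannot be told apart. Groups of 2 or 3 libraries are too small for a test of single libraries that stand apart, so none was made.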

How the results depend on the processing

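Directions of the log2 fold changes held in all but 8 of 427 recomputed values, and those 8 were in the Ctrl set, where no gene passed. There, scaling by library size alone gave -0.054 for Mmp15 and -0.059 for Timp2, and leaving out single libraries gave -0.83 to 1.16 for Mmp3, -0.30 to 0.51 for Mmp15, -0.12 to 0.25 for Timp2 and -0.029 to 0.74 for Timp3. Without single libraries, 5 to 7 members passed against WT controls, 0 members against Ctrl, 4 to 7 against CreCtrl and 4 to 7 over all sets. In KO vs. Ctrl, 2 passed without a filter on low counts, 1 with DESeq2 and 1 in the fit of 14 libraries, which left 1 in KO vs. CreCtrl. Members whose effect differed between the WT and Ctrl sets were 1 with library size alone, 4 without the filter, 2 with DESeq2 and 0 to 1 without single libraries. Between the WT and CreCtrl sets they were 3 without the filter and 0 to 1 without single libraries, and between the Ctrl and CreCtrl sets 1 without the filter and 0 in each fit without a single library. The KO minus control difference of the log2 ratio of MMP to TIMP moved to -1.56 (WT set) and -1.25 (CreCtrl set) without Timp3. Without single libraries it was -2.78 to -2.53, -1.61 to -0.99 and -2.21 to -1.42 in the WT, Ctrl and CreCtrl sets.

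Equal replicate numbers did not pair the libraries, since the deviations of same-numbered libraries of the WT set correlated at -0.02, 0.05 and 0.13 and the other sets have only 2 pairs. With the replicate block, 7, 0 and 6 members passed in the WT, Ctrl and CreCtrl sets and 4 over all sets.

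The call rate over all genes depended on the setting. In KO vs. Ctrl, 26 genes were higher and 1632 lower without the filter, 17 and 1094 with DESeq2, 13 and 635 in the fit of 14 libraries and 0 and 113 with the block. In KO vs. CreCtrl, 575 and 1954 became 1862 and 2931 without the filter, 1655 and 2441 with DESeq2 and 198 and 506 in the fit of 14 libraries. Library size alone moved the median of all genes in KO vs. WT from -0.08 to -0.32, and its calls from 2490 higher and 2929 lower to 1716 and 3942. Of 714 recomputed counts of the gene lists, 81 moved by over 1.5 times, 41 of them in the Ctrl set. The causes of these shifts were not tested. Depth limited what could be said of the scarce genes, with as few as 0 counts in a library for Mmp9 and Timp4, 3 for Timp1 and 7 for Mmp3.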
